A study of Mus musculus with 9 samples.

Results

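Clu, Nes, Fam129a, Xkr9, Flrt3, Galnt4 and Serpinb6b were described across 9 RNA libraries of male mouse pancreatic islets. They are 7 of the 23329 genes in the count table, and were chosen by their measured counts, which were higher by similar amounts in all 5 mutant libraries than in the 4 controls. The difference between the groups and its evenness over the mutants are therefore what chose them. Those values are given as a description, without a test. The controls carry the genotype Pdx1+/-, and the mutants Pdx1A4, an allele name that the labels leave unexplained. Pdx1 is a homeodomain factor needed to build the pancreas and to keep beta cells working. The labels give no age, treatment or strain, and do not tell whether the libraries of a group are separate animals. The spread that p-values use is that between libraries and may be technical.

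The 7 genes act in different parts of the cell. Clusterin, the product of Clu and also called apolipoprotein J, is a secreted chaperone that binds misfolded proteins and is known to be induced in injured epithelia. Nestin (Nes) is an intermediate filament protein of neural stem cells, and in the pancreas it has been described in stellate cells, vessels and immature exocrine cells. Fam129a, now named Niban1, encodes a cytosolic stress-induced protein, Xkr9 a scramblase that caspases switch on in dying cells, and Flrt3 an adhesion protein of the cell surface. Galnt4 encodes a Golgi enzyme that starts mucin-type O-glycans, and Serpinb6b an intracellular inhibitor of serine proteases.

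Libraries held 6092010 to 9163253 counts. The hormone genes Ins1, Ins2, Gcg, Sst, Iapp, Pyy and Ppy, which mark islets, took 16.9% to 21.0% of counts in controls and 0.0691% to 7.99% in mutants, with the lowest shares in mutants 2 and 3. In bulk RNA, fewer cells of a type and less RNA per cell cannot be told apart. Relative to the control mean, log2 CPM of Pdx1 lay between -0.54 and -2.72 in the 5 mutants. Its log2 fold change was -1.18 (standard error 0.40, quasi-likelihood adjusted p in edgeR 0.0461). That call did not hold without any one of controls 1 to 4, mutant 1 or mutant 3 (highest edgeR adjusted p = 0.113). Of 12402 genes tested, edgeR called 20.6% higher and 11.8% lower in mutants at an adjusted p under 0.05. The median log2 fold change over all tested genes was 0.04. Calls in the upward direction were 63.6% of all calls with TMM scaling, 51.8% with relative log expression and 31.8% when libraries were scaled by total counts alone, which shifted the median log2 fold change by -0.33. Levels are in CPM, the usual unit of counts relative to library size, here with TMM-scaled sizes, and log2 fold changes are mutant minus control from the edgeR fit.

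Clu (chromosome 14, positions 65968483 to 65981548 of GRCm38, plus strand) was one of the most abundant transcripts in every library. It had 5396, 4699.6, 12698 and 6919.7 CPM in controls 1 to 4. In mutants 1 to 5 it had 27599, 51549.7, 47649.9, 43865 and 41753 CPM. The groups did not overlap, and control 3 stood above the other controls. Means were 7428 ± 3634 CPM (n = 4, SD) in controls and 42483 ± 9123 (n = 5, SD) in mutants, a 5.72-fold ratio, and the log2 fold change was 2.52 (standard error 0.43). Without control 3 it was 2.90.

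As a share of all counts, Clu was at 0.860% ± 0.445 over controls (n = 4, SD) and at 3.78% ± 0.576 over mutants (n = 5, SD). The lowest share was 0.440% in control 2 and the highest 4.34% in mutant 5, with a 95% Wilson interval of 4.33% to 4.36% that covers counting error only. Clu ranked 9th, 14th, 5th and 9th by count in controls 1 to 4, where the insulin gene Ins2 ranked first. In mutant 5 no gene had more counts than Clu. It ranked 3rd in mutants 1 and 4 and 4th in mutants 2 and 3, where digestive enzyme genes ranked first: Amy2a5, an amylase, in mutants 1, 3 and 4, and Ctrb1, a chymotrypsinogen, in mutant 2.

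Nes (chromosome 3, positions 87971093 to 87980451, plus strand) was low in controls, at 7.52, 7.02, 7.85 and 5.59 CPM. The mutants had 25.5, 50.0, 45.5, 38.3 and 42.9 CPM, so that each lay above every control, with mutant 1 the lowest. The mean was 6.99 ± 0.996 CPM in controls (n = 4, SD) and 40.5 ± 9.35 in mutants (n = 5, SD). Its log2 fold change was 2.53 (standard error 0.22).

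Fam129a (Niban1 in RefSeq; chromosome 1, positions 151571373 to 151721432, plus strand) had 29.8, 26.6, 39.5 and 39.6 CPM in controls and 123, 183, 159, 184 and 169.6 in mutants. The highest control and the lowest mutant were 3.10-fold apart. Its means were 33.9 ± 6.65 CPM (n = 4, SD) and 164 ± 25.2 (n = 5, SD), and the log2 fold change was 2.27 (standard error 0.19).

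Xkr9 (chromosome 1, positions 13668738 to 13702230, plus strand) was the lowest of the 7 genes in CPM. Its raw counts were 16, 13, 18 and 11 in controls and 86, 94, 101, 92 and 98 in mutants, so the control level rests on few reads. This corresponds to 1.86 ± 0.435 CPM (n = 4, SD) and 13.0 ± 1.76 (n = 5, SD). The log2 fold change was the highest of the 7 genes, at 2.80 (standard error 0.24), and no mutant overlapped a control. It lay 0.27 above that of Nes, less than the combined standard error of 0.33.

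Flrt3 (chromosome 2, positions 140658198 to 140671476, minus strand) lies inside the long gene Macrod2, on the opposite strand, and shares no exon base with it in GENCODE M21. It had 10.7, 13.8, 15.1 and 9.72 CPM in controls. The 5 mutants had 40.1, 66.5, 66.1, 56.5 and 53.7, again all above the controls. Means were 12.3 ± 2.54 CPM (n = 4, SD) and 56.6 ± 10.8 (n = 5, SD), with a log2 fold change of 2.20 and a standard error of 0.21. Macrod2 itself fell (log2 fold change -1.29, edgeR adjusted p = 0.0230), a call that did not hold without control 1 (adjusted p = 0.0726) or without mutants 2 and 3 (0.0668).

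Galnt4 (chromosome 10, positions 99108135 to 99113247, plus strand) is a single exon that overlaps Poc1b, a centriole gene, on the same strand. It had 18.9, 19.0, 21.0 and 21.1 CPM in controls and 44.0, 50.7, 47.9, 47.8 and 45.6 in mutants. Both groups were tight, at 20.0 ± 1.22 (n = 4, SD) and 47.2 ± 2.55 (n = 5, SD). The log2 fold change was 1.24 (standard error 0.11), the smallest of the 7 genes. Of the 5040 distinct 50-base words in its transcript, 7.38% also occur in Poc1b, all from 1 coding stretch of 421 bases. Poc1b had 10.5 ± 2.05 CPM in controls (n = 4, SD) and 9.33 ± 1.44 in mutants (n = 5, SD; log2 fold change -0.16, edgeR adjusted p = 0.557).

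Serpinb6b (chromosome 13, positions 32956811 to 32979067, plus strand) had 14.4, 18.9, 28.8 and 17.4 CPM in controls, where control 3 was the highest. In mutants it had 84.3, 139.9, 124, 97.9 and 105, with no overlap. Means were 19.9 ± 6.25 CPM (n = 4, SD) and 110.3 ± 22.0 (n = 5, SD), and the log2 fold change was 2.47 (standard error 0.24). It belongs to a cluster of related serpin genes, so stretches shared with them, where a read cannot be assigned, were looked up. In GENCODE M21, 2.92% of its 2298 distinct 50-base words occur in another gene: 44 words in Serpinb6c, 15 in the pseudogene Gm8436 and 8 in Serpinb6a. The shared stretches are thus a small part of the transcript. The coding stretches shared letter for letter with the other 2 protein-coding genes, read 5′ to 3′ from the main Serpinb6b transcript, are shown because reads inside them fit both genes:
shared with Serpinb6a, transcript bases 835 to 891: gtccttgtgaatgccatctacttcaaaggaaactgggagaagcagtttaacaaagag
shared with Serpinb6c, transcript bases 684 to 756: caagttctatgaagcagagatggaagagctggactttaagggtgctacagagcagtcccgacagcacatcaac
shared with Serpinb6c, transcript bases 933 to 1001: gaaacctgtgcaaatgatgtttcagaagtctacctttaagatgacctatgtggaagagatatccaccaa
Serpinb6c had 0 counts in every control and 1 count in the mutants together. Serpinb6a was the larger of the pair in each library, at 73.3 ± 12.5 CPM in controls (n = 4, SD) and 235 ± 41.7 in mutants (n = 5, SD).

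**Figure D1:**
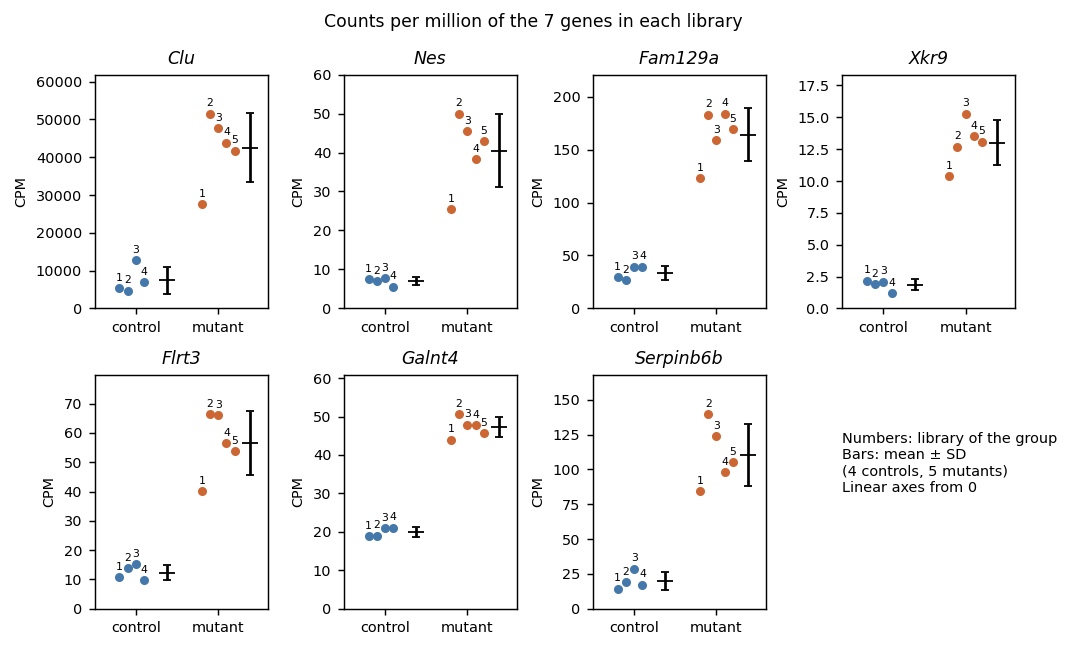
CPM (linear axes from 0) of the 7 genes in 4 control and 5 mutant libraries, with each library's number and the mean ± SD beside the points. In each panel the mutants lie above the controls, and mutant 1 is the lowest mutant.

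The 50-base words of the Clu, Nes, Fam129a, Xkr9 and Flrt3 transcripts occur in no other gene's transcript. Per kilobase of exon, the scale on which levels of different genes can be compared, Clu had the highest mean in mutants (12361 CPM per kb). Serpinb6b (48.8), Fam129a (22.2), Flrt3 (11.6), Galnt4 (9.28), Xkr9 (6.75) and Nes (6.31) followed. Xkr9 and Nes changed places between mutant libraries. In controls the order was Clu (2161), Serpinb6b (8.78), Fam129a (4.59), Galnt4 (3.93), Flrt3 (2.53), Nes (1.09) and Xkr9 (0.964), so that Galnt4 stood above Flrt3 in controls and below it in mutants 2 to 5. Fam129a and Galnt4 changed places in control 2.

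In order of log2 fold change the genes were Xkr9, Nes, Clu, Serpinb6b, Fam129a, Flrt3 and Galnt4. These values, which chose the genes, ran from 2.20 to 2.80 for the first 6 and were 1.24 for Galnt4. Each difference between genes adjacent in this order was below its combined standard error, except Flrt3 to Galnt4 (0.96, combined standard error 0.24). The places of adjacent genes among the first 6 are therefore not resolved. The median over the 7 genes was 2.47, beside 1.04 over all genes called higher. All 7 passed the edgeR threshold and all 7 had every mutant above every control, which their selection implies; over all 12402 tested genes these shares were 20.6% and 18.5%.

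The evenness of the 7 genes over the mutants is part of how they were chosen. Clu and Nes were only about as even as the median tested gene, as given below. The range over the 5 mutants was 0.20 on the log2 scale for Galnt4, 0.55 for Xkr9 and 0.59 for Fam129a. It was 0.73 for Flrt3 and for Serpinb6b, 0.90 for Clu and 0.96 for Nes. Relative to the control mean, Ins2 had values of -1.09, -7.82, -3.44, -1.68 and -1.26 in mutants 1 to 5 on the same scale. The kininogen gene Kng2, shown because earlier results of these data gave it as an uneven rise, lay 1.59, 6.20, 5.85, 2.62 and 2.19 above it.

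The SD of log2 CPM over the 5 mutants was 0.08 for Galnt4, 0.20 for Xkr9, 0.24 for Fam129a, 0.29 for Serpinb6b, 0.30 for Flrt3, 0.35 for Clu and 0.37 for Nes. Its median was 0.35 over all tested genes and 0.31 over genes called higher. Of all tested genes, 1.62% were more even over the mutants than Galnt4, but 49.8% were more even than Clu and 53.1% more even than Nes.

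**Figure D2:**
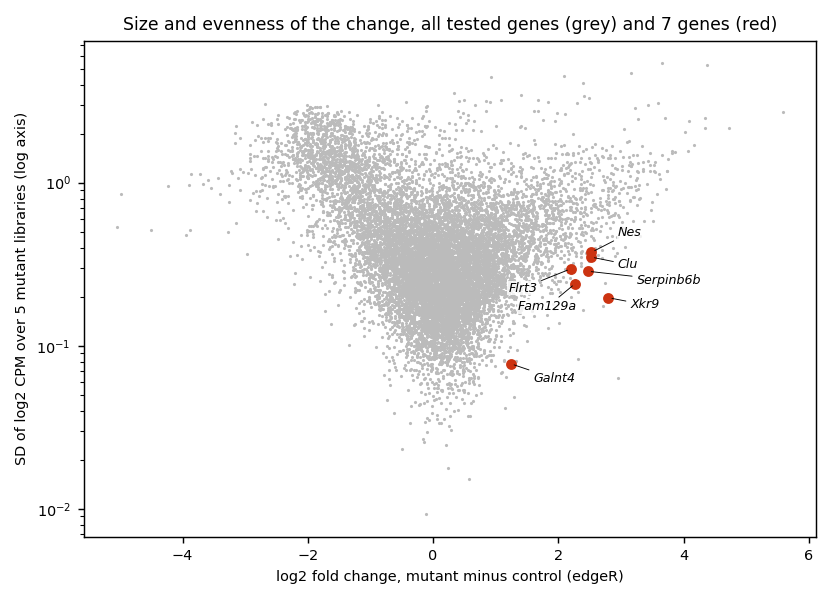
Each point is 1 tested gene, with the edgeR log2 fold change on the x axis and the SD of log2 CPM over the 5 mutants on a log y axis; the 7 genes are red. Galnt4 has the smallest SD and the smallest fold change of the 7 genes, and Clu and Nes lie near the median SD of 0.35.

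Mutant 1 was the lowest of the 5 mutants for all 7 genes. Their mean distance above the control mean was 1.86 in mutant 1, 2.49 in mutant 2, 2.42 in mutant 3, 2.29 in mutant 4 and 2.28 in mutant 5, on the log2 scale. Mutant 2, which held the fewest hormone counts, was the highest for 5 of the 7 genes. Mutant 1 was also the lowest mutant library in 56.3% of the 2560 genes called higher, so this place is not peculiar to the set. Among controls, control 3 was the highest for 4 of the 7 genes, with a mean of 0.35 above the control mean.

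**Figure D3:**
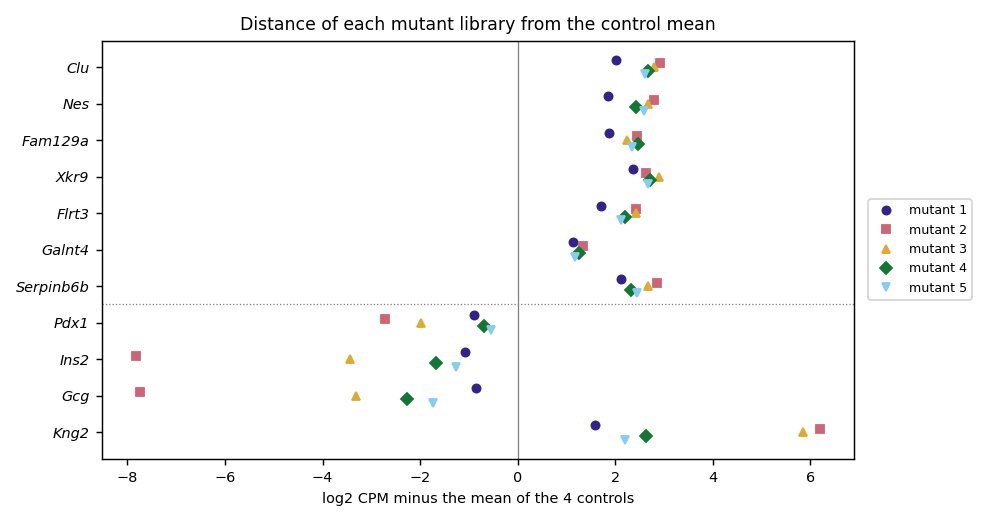
Log2 CPM of each mutant library minus the mean of the 4 controls, for the 7 genes and, under the dotted line, Pdx1, Ins2, Gcg and Kng2; symbols are mutant libraries. The 7 genes span at most 0.96 over the mutants, while Ins2 runs from -1.09 to -7.82.

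Of the markers of the exocrine pancreas, the acinar sum was higher in the same libraries, and the ductal sum overlapped between the groups. The 26 acinar genes summed to 13971 to 23143 CPM in controls and 82559.9 to 230731 in mutants, none was at 0 in all libraries of a group, and 24 of 26 rose. Mutants 1 and 5 had the lowest acinar sums. The 12 ductal genes summed to 1753 to 6864 CPM in controls, with control 3 the highest, and to 2768 to 6299 in mutants, with overlap. Of these, 5 of 12 rose and Krt7 fell, beside 20.6% and 11.8% of all tested genes. The acinar score, the mean log2 CPM of the acinar genes, was explained by the group to 92.6%, so a rise in acinar RNA and the genotype cannot be told apart in these libraries.

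Fits with these scores as covariates gave smaller differences. With the acinar score the log2 fold changes were 1.97 for Xkr9, 1.63 for Fam129a, 1.34 for Nes, 1.09 for Serpinb6b, 0.94 for Galnt4, 0.82 for Clu and 0.70 for Flrt3. Standard errors then ran from 0.39 for Galnt4 to 1.18 for Clu, and edgeR called 0 genes of the whole table in either direction, with 472 at an unadjusted p under 0.05. With the endocrine score, the mean log2 CPM of 20 granule and exocytosis genes, they were 2.74 for Xkr9, 2.19 for Nes, 2.14 for Clu, 2.11 for Fam129a, 2.09 for Serpinb6b, 1.90 for Flrt3 and 1.14 for Galnt4. Without mutants 2 and 3 the values stayed between 1.14 (Galnt4) and 2.67 (Xkr9), with Clu at 2.28 and Nes at 2.29.

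**Figure D4:**
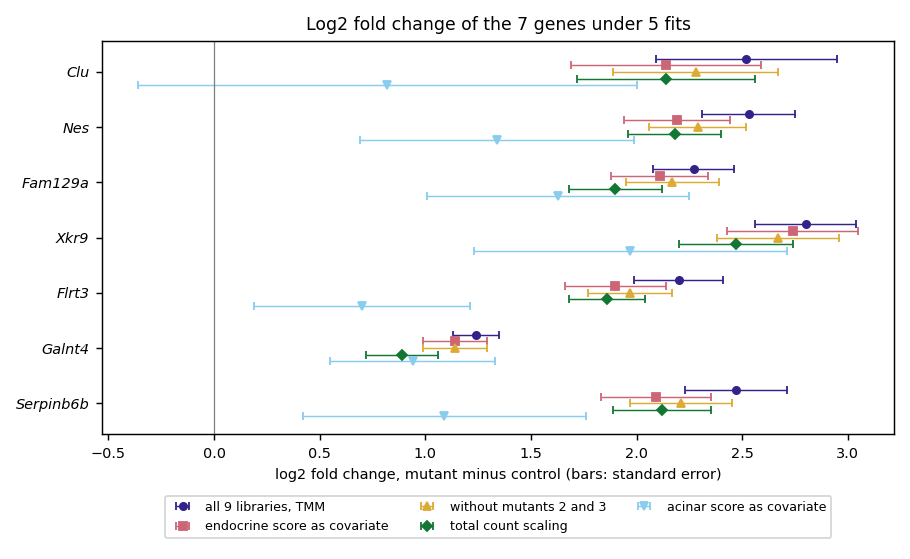
Log2 fold change (x axis, bars: standard error) of the 7 genes in 5 fits. All values are above 0. Those with the acinar score as a covariate are the lowest for 6 of the 7 genes and have the widest bars, and the bar of Clu there reaches below 0.

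Nes was set beside the cell types in which it is known outside the exocrine tissue. The 14 stellate and fibroblast genes summed to 77.3 to 179 CPM in controls and to 3.10 to 232 in mutants. The endothelial list (12 genes) summed to 61.0 to 204 and 8.90 to 111, and the Schwann cell and neuron list (10 genes) to 60.7 to 106 and 1.48 to 48.9. In mutant 2, where Nes was highest at 50.0 CPM, these sums were 3.10, 8.90 and 1.48 CPM, each the lowest of the 9 libraries. In mutant 1, where Nes was at 25.5 CPM, they were 232, 111 and 48.9 CPM, with the stellate sum above every control. The cell source of Nes was not tested. Only Thy1, a fibroblast and neuron surface marker, and Sox10, the Schwann cell factor, of these lists had 0 counts in all mutants. Neither was at 0 in all controls. Vim, the filament protein with which nestin usually assembles, had 154, 106, 279 and 437 counts in controls 1 to 4. In mutants 1 to 5 it had 286, 1, 40, 67 and 75 counts. Of the tested stellate genes 2 of 11 fell, beside 11.8% of all tested genes. Only 11 stellate and fibroblast, 10 endothelial and 4 Schwann cell and neuron genes passed the low-count filter and were tested. EdgeR called 0 of these higher, beside 20.6% of all tested genes. In that direction 0 had an unadjusted p under 0.05, and DESeq2 and limma-voom called 0. Macrophage genes (10) summed to 99.8 to 192 CPM in controls and 41.7 to 174 in mutants, with overlap.

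**Figure D5:**
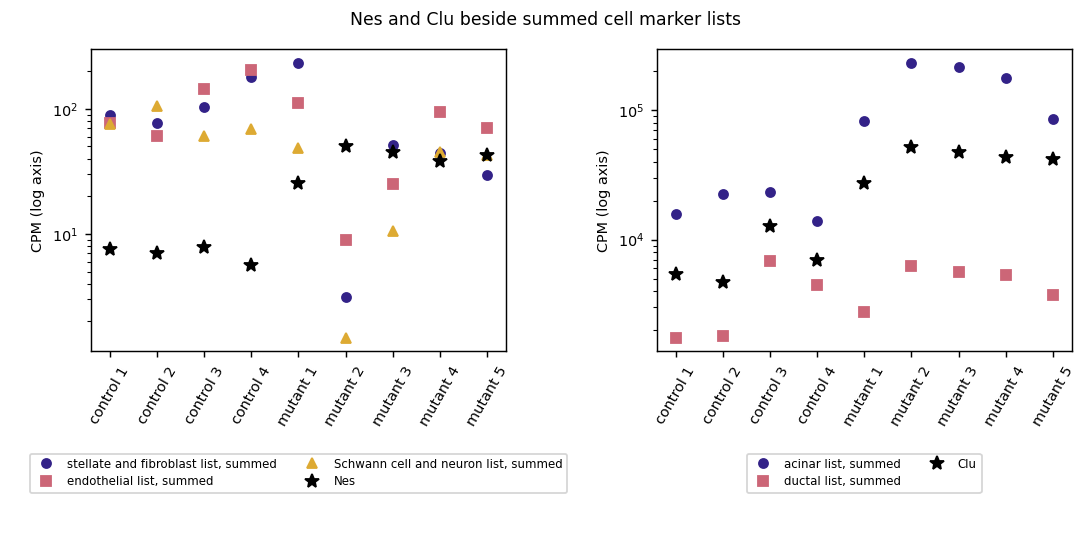
CPM on a log axis in each library: Nes beside the summed stellate, endothelial and Schwann cell and neuron lists (left), and Clu beside the summed acinar and ductal lists (right). In mutant 2 Nes is at 50.0 CPM and the 3 lists at 3.10, 8.90 and 1.48. In mutant 1 Nes is at 25.5 CPM and the 3 lists at 232, 111 and 48.9.

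Other genes of the pathways were examined through lists chosen with earlier results of these data known. In the sentences that follow, rose and fell mean an edgeR adjusted p under 0.05. Over all tested genes 20.6% rose and 11.8% fell, and the share of each list's tested genes is given in brackets for comparison. With the acinar score as a covariate none of these calls was kept, but 0 genes of the whole table were called there. The group explained 92.6% of that score, so this fit cannot tell an acinar difference from a group difference. With the endocrine score none of the falls in the 8 lists was kept. Rises then numbered 4 of the intermediate filament list, 2 of the FLRT list, 4 of the clade B serpins and 7 of the injury list. They were fewer in the other lists: 3 of the stress response genes, 1 of the scramblase, flippase and caspase genes, 2 of the mucin-type O-glycosylation genes and 0 of the extracellular chaperone list. DESeq2 called more falls than edgeR in several lists, with 5 of the chaperone list, 5 intermediate filament, 3 stress response, 3 scramblase, 5 FLRT and 2 injury list genes.

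For clusterin, 10 of 16 extracellular chaperone, apolipoprotein and receptor genes were tested. Of these 1 rose (10%) and 2 fell (20%), and the median log2 fold change was -0.89. Limma-voom called 0 higher and 7 lower there, and edgeR had 1 higher and 5 lower at an unadjusted p under 0.05. Vldlr, a lipoprotein receptor, fell from 115 ± 15.9 CPM (n = 4, SD) to 64.1 ± 10.6 (n = 5, SD; log2 fold change -0.85, edgeR adjusted p = 0.0057). The clusterin receptor gene Lrp8 had 9.37 CPM in controls and 3.75 in mutants (edgeR adjusted p = 0.122), and the apolipoprotein gene Apoe 11.4 and 11.7 (0.972). Vtn, encoding vitronectin, rose by a log2 fold change of 2.82 (edgeR adjusted p = 0.0196), but not without control 2, control 4 or both mutants 2 and 3, where it was 1.06. Sort1, a sorting receptor, fell (log2 fold change -0.62, edgeR adjusted p = 0.0286), a call lost without control 1, control 4, mutant 3 or both mutants 2 and 3. Leaving out single libraries moved the number lower to between 1 (control 1, control 4 or mutant 3) and 5 (mutant 1), and the number higher to between 0 (control 2 or 4) and 2 (control 3 or mutant 5).

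Of 14 intermediate filament genes tested, 4 rose (28.6%), all of them keratins, and 3 fell (21.4%). Krt23 rose from 72.0 ± 29.0 CPM (n = 4, SD) to 607 ± 188 (n = 5, SD), a log2 fold change of 3.07 (edgeR adjusted p = 0.00147). Krt19, Krt18 and Krt8 rose by 2.13, 2.03 and 2.08. The neuronal filament genes Nefh and Ina fell (log2 fold changes -2.31 and -1.95), as did the ductal keratin Krt7 (-1.34), and the keratin Krt20 did not pass (0.88, edgeR adjusted p = 0.138). Vim did not pass (log2 fold change -1.28, edgeR adjusted p = 0.247), except without mutant 1, where it fell (-2.19, 0.0477). The 4 rises held with each library left out, while the number lower was 1 without control 1, control 3, control 4 or mutant 3.

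Around Fam129a, 11 of 23 tested genes of the Niban family and the integrated stress response rose (47.8%). Of them 1, Ddit4, fell (4.35%), and the median log2 fold change of the 23 was 0.52. Slc7a11, the cystine transporter, rose from 56.2 ± 9.43 CPM (n = 4, SD) to 221 ± 69.5 (n = 5, SD; log2 fold change 1.97, edgeR adjusted p = 0.00152). Phgdh, of serine synthesis, rose by 1.72, the kinase gene Eif2ak3 (PERK) by 1.53 and the translation repressor gene Eif4ebp1 by 1.12. Of the pathway's own transcription factors, Atf3 rose (1.15, edgeR adjusted p = 0.0245). Atf4 (0.37, 0.117), Ddit3 (-0.76, 0.0845) and Cebpb (-0.20, 0.741) did not pass, nor did the paralog Fam129b (0.09, 0.783). Without mutant 3, without mutants 2 and 3, or under total count scaling 7 rose, and with the endocrine score 3. The number lower was 2 without mutant 1, 2, 4 or 5.

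Around Xkr9, 4 of 16 tested scramblase, flippase and caspase genes rose (25%) and 1 fell (6.25%), with a median log2 fold change of 0.10. Casp9, the initiator caspase of the mitochondrial pathway, rose from 28.2 ± 3.65 CPM (n = 4, SD) to 196 ± 114 (n = 5, SD; log2 fold change 2.79, edgeR adjusted p = 0.00256). Casp8 rose by 0.99, while the flippase subunit gene Tmem30a fell by 0.79 on the log2 scale. The scramblase paralog Xkr8 had 3 to 21 counts per library and was not tested, and Xk (0.05, edgeR adjusted p = 0.884) did not pass. Casp8 did not pass, and only 2 genes rose, without control 2, mutant 3, mutant 4 or both mutants 2 and 3, or under total count scaling. The fall of Tmem30a did not pass when control 1, 3 or 4, mutant 3 or 5, or mutants 2 and 3 together were left out (highest edgeR adjusted p over single libraries 0.0732), and 2 genes fell without mutant 1 or mutant 4.

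Of the FLRT family and its receptors, 12 of 18 were tested. Of these 2 rose (16.7%) and 3 fell (25%), with a median log2 fold change of -0.64. Flrt2 rose from 6.02 ± 2.66 CPM (n = 4, SD) to 38.6 ± 18.0 (n = 5, SD; log2 fold change 2.67, edgeR adjusted p = 0.00356), and Flrt1 did not pass (-0.11, 0.713). The growth factor receptor gene Fgfr1, a known partner of FLRT proteins, rose by 1.53. Lphn1 and Odz4, a latrophilin and a teneurin gene, both fell by 1.62 on the log2 scale. The call for Odz4 was lost without control 1 or control 4 (edgeR adjusted p = 0.0539 and 0.0513). The number lower was 1 without control 1 and 5 without mutant 2.

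In mucin-type O-glycosylation 16 of 22 genes were tested. Of these 4 rose (25%) and 3 fell (18.8%), and the median log2 fold change was 0.16. Galnt7, which like Galnt4 prefers substrates that already carry a sugar, rose from 44.2 ± 3.98 CPM (n = 4, SD) to 119.6 ± 22.5 (n = 5, SD; log2 fold change 1.44, edgeR adjusted p = 0.00147). Galnt3 rose by 2.37 and the mucin gene Muc1 by 2.21. Galnt11 fell by 0.89 on the log2 scale, and Galnt12 did not pass (-0.53, edgeR adjusted p = 0.568), except without mutant 4, where it fell (-1.69, 0.0212). C1galt1, which extends the first sugar, fell (-1.19, 0.0213). The number lower was 1 without control 4.

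Of 25 clade B serpin genes in the table, 7 were tested, and 4 of these rose (57.1%), with a median log2 fold change of 1.68. Serpinb1a, an inhibitor of neutrophil proteases, rose from 127 ± 62.6 CPM (n = 4, SD) to 645 ± 221 (n = 5, SD; log2 fold change 2.34, edgeR adjusted p = 0.00257). Serpinb9, the granzyme B inhibitor of the clade, rose by 2.15, Serpinb6a by 1.68 and Serpinb8 by 1.95. Serpinb8 was low, with 1.17 ± 0.751 CPM in controls (n = 4, SD) and 4.65 ± 1.90 in mutants (n = 5, SD). It passed the low-count filter through the mutants. EdgeR called 0 lower, with 0 at an unadjusted p under 0.05, 0 by DESeq2 and 1 by limma-voom. The 4 rises held with each library left out. Serpinb8 was lost with the replicate block (edgeR adjusted p = 0.0619) and under total count scaling (0.0525). Genes tested in this list had to pass the low-count filter, which 18 of the 25 did not.

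Among 23 tested genes of pancreatic injury, ducts and progenitors 8 rose (34.8%) and 1 fell (4.35%), with a median log2 fold change of 0.58. Aldh1a1, a retinaldehyde dehydrogenase, rose from 13.3 ± 2.62 CPM (n = 4, SD) to 123 ± 44.9 (n = 5, SD; log2 fold change 3.20, edgeR adjusted p = 0.00114). Tff2, a secreted trefoil peptide gene, rose by 2.90, and the Hippo coactivator gene Yap1 by 2.05. The ductal factor Sox9 did not pass (-0.05, edgeR adjusted p = 0.930). The number that rose stayed at 8 or above with each library left out, and the fall of Krt7 did not pass when control 1, 3 or 4, or mutant 3 or 4, was left out.

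Neighbouring genes gave no single pattern. Neighbours here are tested genes that overlap the 7 genes or are the nearest tested gene on either side, at any distance. Of these 16 genes, 6 rose and 3 fell, beside 20.6% and 11.8% of all tested genes. The farthest was Kif16b, 1947 kb from Flrt3, which rose by 1.02 (edgeR adjusted p = 0.0134). Of the neighbours of Clu, Scara3, a scavenger receptor gene 14.5 kb away, rose from 10.6 ± 7.53 CPM (n = 4, SD) to 50.9 ± 27.2 (n = 5, SD; log2 fold change 2.24, edgeR adjusted p = 0.0162), and Gulo, 5.24 kb away, by 3.04 (0.0114). Gulo had means of 0.329 CPM in controls and 2.76 in mutants. It passed the low-count filter through the mutants, and was not tested when mutant 1, 2, 4 or 5 was left out. The Scara3 call was lost without control 1 (edgeR adjusted p = 0.0506) or without mutants 2 and 3 (0.0694). The nearest tested genes on the 2 sides of Serpinb6b were serpin genes, Serpinb1a at 104 kb and Serpinb9 at 18.0 kb. Both rose as given above. Neither neighbour of Fam129a passed (Rnf2, edgeR adjusted p = 0.428; Edem3, 0.187). Lactb2, 8.15 kb from Xkr9, had 37.6 ± 5.20 CPM in controls (n = 4, SD) and 39.8 ± 4.39 in mutants (n = 5, SD; edgeR adjusted p = 0.679). Of the neighbours of Nes, Gpatch4, 62.7 kb away, rose by 1.25. Isg20l2, 30.4 kb away, did not pass (0.20, edgeR adjusted p = 0.454). Beside Galnt4, Atp2b1 (82.0 kb away) fell (log2 fold change -0.87, edgeR adjusted p = 0.00566), a call lost with the endocrine score (0.104). Dusp6, on the other side at 150.0 kb, did not pass (0.72, 0.127), except without control 4 (1.06, 0.046). Eya1, 467 kb from Xkr9, fell (log2 fold change -2.37, edgeR adjusted p = 0.0472), a call lost without any one of 6 libraries (controls 1 to 4, mutant 3 or 5).

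Patterns were compared by the root mean square difference, over the 9 libraries, of log2 CPM relative to each gene's control mean, so that a small value means a like size and a like spread. The nearest genes named are those outside the set. Nes was nearest to Cdc42ep5 (0.20), Rasef (0.22) and Gata4 (0.24), and lay 0.24 from Xkr9 and 0.25 from Serpinb6b. Clu was nearest to the glutathione transferase gene Gstt3 (0.25), with Serpinb6b also at 0.25, then 2210010C17Rik and Bok (0.26 each). Outside the set, Serpinb6b was nearest to Gstt3 (0.22), Ggta1 (0.24) and St6galnac2 (0.26), and within it Clu and Nes lay at 0.25 each. Fam129a was nearest to Slc6a9 (0.18), Lrrc8e (0.20) and Mboat1 (0.21), and Flrt3 to Gstp1 (0.18), Ralgps2 (0.20) and Ephx1 (0.21). Outside the set, Pm20d1 (0.30), Lrmp and Mgll (0.31 each) were nearest to Xkr9. Galnt4 was nearest to Pusl1 (0.13), Ttc13 and Nubp1 (0.14 each), and lay 0.74 to 1.10 from the other 6 genes.

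RefSeq promoter windows (GRCm38.p6, 250 bases before to 50 after the annotated start) were at hand for 4 of the 7 genes, Nes, Fam129a, Flrt3 and Serpinb6b. Those of Nes and Serpinb6b, 2 genes whose patterns lay 0.25 apart, are printed 5′ to 3′ on the gene's strand, with the bases from the annotated start on in capitals:
Nes, chr3:87970843-87971142, plus strand: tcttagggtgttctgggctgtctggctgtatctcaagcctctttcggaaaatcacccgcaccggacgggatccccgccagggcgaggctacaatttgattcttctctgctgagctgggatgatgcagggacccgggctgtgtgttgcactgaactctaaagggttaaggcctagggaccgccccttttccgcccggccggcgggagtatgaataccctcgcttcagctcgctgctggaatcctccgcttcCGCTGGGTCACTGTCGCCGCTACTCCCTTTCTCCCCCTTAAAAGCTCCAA
Serpinb6b, chr13:32965011-32965310, plus strand: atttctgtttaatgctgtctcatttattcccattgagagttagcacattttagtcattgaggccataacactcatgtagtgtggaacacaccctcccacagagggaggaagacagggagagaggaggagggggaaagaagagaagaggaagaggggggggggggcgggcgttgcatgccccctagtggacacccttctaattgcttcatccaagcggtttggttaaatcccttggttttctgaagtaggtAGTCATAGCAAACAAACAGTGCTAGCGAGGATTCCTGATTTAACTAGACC
The Serpinb6b window belongs to a start inside the gene span given above, downstream of its first base. None of 5 motifs searched on both strands was found in the 4 windows. These were GGAATG (TEAD), TGANTCA (AP-1), GAANNTTC (heat shock factor), TGATGNAA (ATF4 and C/EBP) and CAGCTG (E-box). They occur in 14.7%, 7.81%, 7.86%, 3.97% and 16.3% of all 32851 windows. No match says only that these letters are not in these windows. The GC content was 58.7% for Nes, 61.3% for Fam129a, 51.3% for Flrt3 and 48.3% for Serpinb6b, beside a median of 52.7% over all windows.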

How the data were processed

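The authors deposited raw whole-number counts per gene symbol for 9 libraries (4 control, 5 mutant) without normalization. Per the submitters' processing notes, mm10 was the build, and Bowtie2, Cell Ranger, Seurat, Signac, DESeq2, R 4.1.0, RSEM, HOMER and STAR were named without roles. The counter, annotation and strand setting are not given in the sources used here. Of 23329 symbols, 23075 matched a RefSeq gene of GRCm38.

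Counts were filtered with filterByExpr, scaled by TMM and fitted with edgeR 4.0.16 in R 4.3.3 (quasi-likelihood test, two-sided, Benjamini-Hochberg over all 12402 tested genes, threshold 0.05). Log2 CPM used a prior count of 2. The fit was tested on simulated data. Exon lengths, overlaps and transcripts came from GENCODE M21. The 7 genes and all lists were chosen with earlier results of these data known.

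Named genes were the 7, Pdx1, their neighbours, paralogs and 3 nearest patterns each, and up to 4 genes of lowest p per list. Ins2, Gcg, Kng2, Amy2a5, Ctrb1 and list members such as Lrp8, Apoe, Atf3, Atf4, Cebpb, Ddit3, Xk, Nefh, Ina, Krt7, C1galt1 and Sox9 were added after their values were seen. Some list genes are not reported here. Alternatives were other scalings, filters, covariates, DESeq2 1.42.0, limma-voom (limma 3.58.1), a replicate block and left-out libraries; total count scaling was added after the data were seen. Depth limits the precision: Xkr9 had 11 to 18 counts per control.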

Additional observations from a re-analysis of the deposited data

How the results depend on the processing

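The log2 fold changes of all 7 genes, which were chosen for their rise, were above 0 under every alternative run. Of 140 values (7 genes, 20 alternatives), 119 moved by less than the SD between libraries. Larger moves came with total count scaling, chosen after seeing the data (Nes 2.18, Fam129a 1.90, Xkr9 2.47, Flrt3 1.86, Galnt4 0.89, Serpinb6b 2.12), where 1093 genes were called higher and 2342 lower. With the acinar score they were Clu 0.82, Nes 1.34, Fam129a 1.63, Xkr9 1.97, Flrt3 0.70, Galnt4 0.94 and Serpinb6b 1.09. Standard errors there ran from 0.39 (Galnt4) to 1.18 (Clu, above its value). EdgeR then called 0 genes higher and 0 lower, with 472 at an unadjusted p under 0.05. With the endocrine score Nes was 2.19, Galnt4 1.14 and Serpinb6b 2.09, with 542 higher and 74 lower. Galnt4 was 1.14 with RLE scaling, 1.13 with DESeq2 and 1.14 without mutants 2 and 3, where 1355 genes were higher. DESeq2 called 2555 lower and limma-voom 2294, against 1462 in edgeR. Leaving out single libraries gave 1579 (mutant 3) to 2702 (mutant 1) genes higher, 699 (control 1) to 1865 (mutant 1) lower, and Galnt4 between 1.12 and 1.26. The causes were not tested.

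With the acinar score as a covariate the log2 fold change of 11 named genes changed sign: Atp2b1 to 0.38, Casp9 to -0.85, Eif4ebp1 to -0.12, Eya1 to 0.23, Lphn1 to 1.82, Odz4 to 1.24, Pdx1 to 0.91, Sort1 to 0.43, Tff2 to -0.26, Tmem30a to 0.03 and Vtn to -2.67. None passed there (lowest edgeR adjusted p = 0.932). Standard errors ran from 0.44 (Atp2b1) to 2.88 (Eya1), and the group explained 92.6% of the score. These signs are therefore not resolved. Eya1 was 0.47 with the endocrine score. The replicate block gave 1658 genes higher and 774 lower. Same-numbered libraries share only a number: their deviations from the group means correlated at 0.05, -0.02, 0.18 and -0.05, and only mutant 3 correlated best with the control of its own number.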
